A study of Mus musculus with 12 samples.

Results

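Fibroblasts of the joint capsule form a thin lining that faces the joint cavity and a looser sublining beneath it. The lining makes lubricin and hyaluronan for the joint fluid, and in inflammatory arthritis it is known for podoplanin and for enzymes that degrade matrix. The sublining holds vessels and the fibroblasts that carry THY1 or CD34. The 10 genes described here are markers of these cells, taken by symbol from the 52636 gene identifiers of the count table. Pdpn, Prg4, Tspan15 and Clic5 are markers of the lining, Thy1 and Cd34 of the sublining, and Fap, Cdh11, Pdgfra and Pdgfrb of joint fibroblasts in general. All 10 passed the filter on low counts, and their counts ran from 88 for Cdh11 to 157749 for Prg4 in a single library.

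RNA was measured in whole paw joints of 12 mice, 4 in each of 3 groups, with 1 library per mouse per the labels. The first group had K/BxN serum-induced arthritis and was given 6F2, an agonistic antibody to SIRPa, an inhibitory receptor of myeloid cells. The second had the same serum-induced arthritis and was given the control antibody anti-gp120, and the third was naive and was given anti-gp120. Joints of serum-transferred mice were taken at day 7, and the labels give no strain, sex, age or antibody dose. Serum transfer carries over arthritogenic antibodies and models only the effector stage of arthritis. Values are TMM-scaled CPM, read counts divided by the library's total and by a factor from edgeR, with SD over 4 mice. Differences are log2 fold changes ± SE, and a gene is called when its edgeR adjusted p is below 0.05.

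Total counts ran from 13791454 to 17597920 in 6F2 libraries, from 6893969 to 13416033 in control-antibody arthritis and from 14289363 to 16205593 in naive libraries. Control-antibody mouse 1 stood apart from its group. Its summed CPM of 10 macrophage and monocyte markers was 498, against 969, 1013 and 988 in control-antibody mice 2, 3 and 4. In naive mice this sum was 497 to 526, and in 6F2 mice 624 to 769. Genes of smell and taste receptors, which joints should lack, together reached 528 CPM in control-antibody mouse 2 and 227 CPM in mouse 4, against 10.1 to 29.5 CPM in the other 10 libraries. The gene model Gm26917 took 1.68% to 2.52% of counts in 6F2 libraries, 2.89%, 8.28%, 6.82% and 4.55% in control-antibody mice 1 to 4 and 1.63% to 2.39% in naive libraries. It was thus highest in the 3 mice with the highest Pdpn, Thy1, Cdh11 and Pdgfrb, and its part in those results was not tested. Epidermal markers summed to 6.25 CPM in 6F2 mouse 2 and 6.82 CPM in naive mouse 4, against 230 to 14166 CPM elsewhere. The joints also held muscle, vessels, cartilage and bone, so that for every gene a smaller number of cells and less RNA per cell cannot be told apart.

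On GRCm38, Pdpn (ENSMUSG00000028583) lies on chromosome 4 from 143267431 to 143299564, and Tspan15 (ENSMUSG00000037031) on chromosome 10 from 62185396 to 62231251. Clic5 (ENSMUSG00000023959) lies on chromosome 17 from 44188584 to 44280172, and Cd34 (ENSMUSG00000016494) on chromosome 1 from 194938819 to 194961279. Prg4 (ENSMUSG00000006014) lies on chromosome 1 from 150449412 to 150466165, and Thy1 (ENSMUSG00000032011) on chromosome 9 from 44043384 to 44048579. Fap (ENSMUSG00000000392) lies on chromosome 2 from 62500943 to 62574075, and Cdh11 (ENSMUSG00000031673) on chromosome 8 from 102632095 to 102785642. Pdgfra (ENSMUSG00000029231) lies on chromosome 5 from 75152292 to 75198215 on the same build. These genes and Pdgfrb are protein-coding. Prg4 shares 204 exonic bases with Tpr on the opposite strand, and Cd34 shares 148 with an antisense gene. Pdgfra shares 652 with 3 small genes and Tspan15 shares 39 with a miRNA gene. The strand setting of the counting is not given, so reads in these stretches are uncertain.

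The promoters of the 4 genes that were called in the comparisons, Pdpn, Tspan15, Clic5 and Cd34, are shown because Pdpn moved opposite to the other 3. Of the 10 markers, 5 had an entry in the RefSeq promoter table of GRCm38.p6, and Pdgfra is the one not shown. Each line holds the 250 bases before the RefSeq start, 5′ to 3′ on the strand of the gene. Capitals mark matches, on either strand, to the AP-1 motif with letters TGANTCA, the TATA box with letters TATAAA, the CCAAT box, the GC box with letters GGGCGG or the RUNX motif with letters TGTGGT. These windows are chr4:143299565-143299814 on the minus strand for Pdpn, chr10:62231219-62231468 on the minus strand for Tspan15, chr17:44188322-44188571 on the plus strand for Clic5 and chr1:194938571-194938820 on the plus strand for Cd34.
Pdpn: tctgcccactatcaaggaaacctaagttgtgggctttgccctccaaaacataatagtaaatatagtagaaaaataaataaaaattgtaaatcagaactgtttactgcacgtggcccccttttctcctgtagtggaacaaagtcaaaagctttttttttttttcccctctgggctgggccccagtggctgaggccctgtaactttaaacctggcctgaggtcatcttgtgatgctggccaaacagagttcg
Tspan15: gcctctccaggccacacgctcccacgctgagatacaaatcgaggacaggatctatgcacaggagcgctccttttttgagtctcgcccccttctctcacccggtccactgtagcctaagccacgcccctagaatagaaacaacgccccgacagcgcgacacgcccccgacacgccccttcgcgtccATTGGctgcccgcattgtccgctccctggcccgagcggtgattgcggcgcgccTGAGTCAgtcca
Clic5: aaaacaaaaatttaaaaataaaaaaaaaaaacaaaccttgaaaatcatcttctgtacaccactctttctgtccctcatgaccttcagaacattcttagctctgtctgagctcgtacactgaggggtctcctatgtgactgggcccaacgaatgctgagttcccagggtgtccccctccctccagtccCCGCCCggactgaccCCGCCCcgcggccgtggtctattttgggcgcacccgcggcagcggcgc
Cd34: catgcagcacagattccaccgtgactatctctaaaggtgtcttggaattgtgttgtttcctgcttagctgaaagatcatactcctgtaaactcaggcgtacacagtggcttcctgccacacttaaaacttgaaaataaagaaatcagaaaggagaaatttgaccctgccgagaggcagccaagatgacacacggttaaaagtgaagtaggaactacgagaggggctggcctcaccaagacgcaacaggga

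The 4 promoters shared no searched motif. That of Tspan15 held 1 AP-1 match, which starts 12 bases before the RefSeq start, and 1 CCAAT match. That of Clic5 held 2 GC box matches, and those of Pdpn and Cd34 held none of the searched letters. Among all 32851 promoter windows of the same length, 6.75% held AP-1, 12.4% TATA, 33.8% CCAAT, 32.7% the GC box and 14% RUNX. The GC content was 43.2% for Pdpn, 63.2% for Tspan15, 52.8% for Clic5 and 46.4% for Cd34. A match describes the letters and is not evidence of binding.

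Levels differed widely among the markers. Per kilobase of annotated exon, Prg4 averaged 1910 ± 279 CPM in naive joints (SD, n = 4) and Clic5 47.8 ± 3.11. Pdgfra followed at 22.4 ± 1.47, then Pdgfrb at 15.0 ± 0.276 and Cd34 at 14.0 ± 0.941 CPM per kilobase, and the ranges of this last pair overlapped. Thy1 at 7.38 ± 1.86 and Pdpn at 6.99 ± 1.87 also overlapped, followed by Tspan15 at 4.11 ± 0.188. Fap at 2.48 ± 0.616 and Cdh11 at 1.49 ± 0.491 CPM per kilobase were lowest and overlapped. All other neighbours in this order had ranges that did not overlap. Prg4 alone took 0.589% to 0.932% of all counts of a naive library.

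Arthritis under the control antibody was compared with naive joints to ask what inflammation does to these markers, and 6F2 was compared with the control antibody to ask what the agonist changes. In the first comparison Pdpn rose 3.92-fold, and Tspan15, Clic5 and Cd34 fell to 0.518, 0.473 and 0.737 of their naive level. Of the 10 markers these 4 were called, 1 higher and 3 lower, while by sign 6 were above 0 and 4 below. Over all 16674 genes tested, 10.3% were called, 5.87% higher and 4.45% lower. In the second comparison the same 4 genes were called in the opposite direction, 3 higher and 1 lower, against 3.29% of all genes, 1.59% higher and 1.7% lower. Both comparisons use the same control-antibody mice, which alone favours opposite signs. The groups did not overlap for these 4 genes in either comparison; over all genes they were apart for 12.5% in the first (6.02% higher, 6.47% lower) and 10% in the second (5.18% higher, 4.82% lower). At an unadjusted p below 0.05 there were 5 markers in each, against 28.2% and 24.4% of all genes. The median log2 fold change of the 10 markers was 0.12 and 0.04 in the 2 comparisons, against 0.03 and -0.03 over all genes. The plot of fold changes with their intervals shows the 4 genes away from 0 in both. The 95% intervals of Cdh11 in arthritis (0.41 to 2.38) and Thy1 under 6F2 (-1.68 to -0.16) also left out 0, though neither was called.

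**Figure D1:**
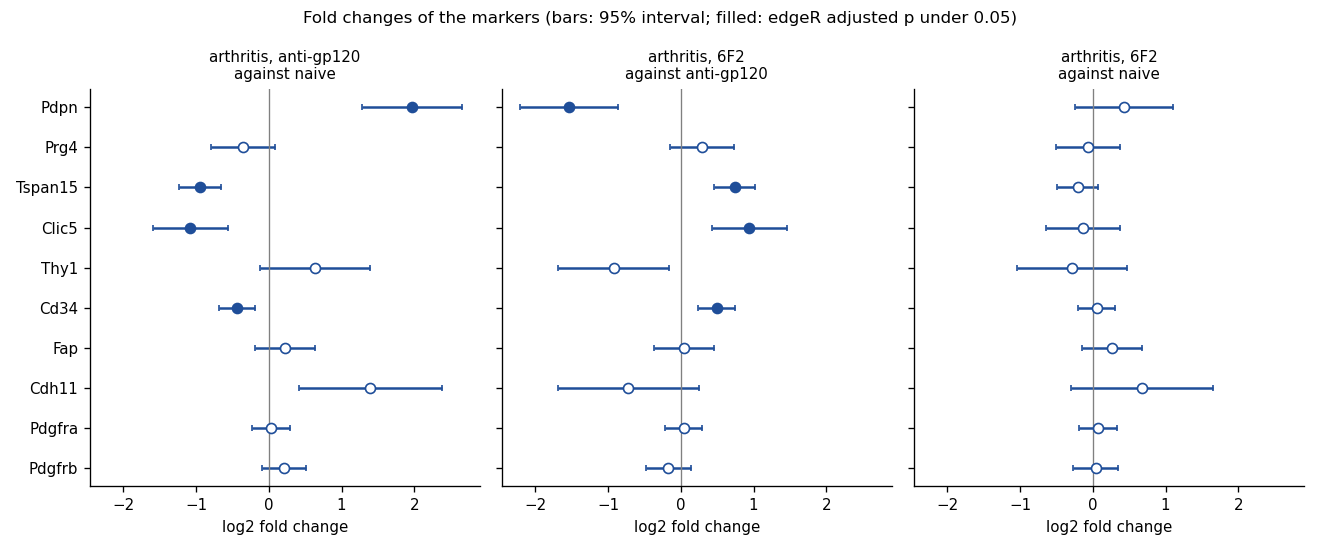
Log2 fold change (x axis) of the 10 markers (rows) in 3 comparisons, from the edgeR fit of all 12 libraries. Bars are 95% intervals and filled points have an adjusted p below 0.05; Pdpn lies at 1.97 in arthritis against naive and at -1.54 in 6F2 against control antibody.

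Pdpn encodes podoplanin, a mucin-type glycoprotein of lining fibroblasts that binds the platelet receptor CLEC-2 and is also made by lymphatic endothelium, osteocytes and keratinocytes. It was at 18.6, 18.1, 16.3 and 15.4 CPM in 6F2 mice 1 to 4. The control-antibody arthritis mice had 19.4, 59.8, 69.2 and 51.0 CPM, and the naive mice 10.6, 11.9, 17.7 and 10.6 CPM. Control-antibody mouse 1 lay just above every 6F2 and naive mouse, and the other 3 of its group were far above them. Pdpn rose by 1.97 ± 0.32 in control-antibody arthritis against naive (edgeR adjusted p = 0.00763). It fell by 1.54 ± 0.31 under 6F2 against the control antibody (edgeR adjusted p = 0.0314).

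The rise against naive kept its call whichever single mouse was left out, with edgeR adjusted p values up to 0.0321. The fall under 6F2 lost its call without control-antibody mouse 2, 3 or 4 (edgeR adjusted p = 0.0850, 0.0953 and 0.0731). It was also lost without 6F2 mouse 1, 2 or 3 (edgeR adjusted p = 0.0987, 0.0955 and 0.0714) and without naive mouse 2 (edgeR adjusted p = 0.0504). Its size stayed between -1.80 and -1.33 in these fits. Of 5 lymphatic markers, Ccl21a was at 0 in all libraries, and their summed level was 75.6 to 172 CPM in 6F2 joints, 49.3 to 69.7 CPM in control-antibody arthritis and 109 to 132 CPM in naive joints. Lyve1 was the largest part of this sum, with 6599, 1719 and 5561 counts over the libraries of these groups. All 4 lymphatic genes tested were below 0 in control-antibody arthritis against naive, and only Lyve1 was called. Epidermal markers summed to 6.25 to 14166 CPM in 6F2 joints, 343 to 3443 CPM in control-antibody arthritis and 6.82 to 10829 CPM in naive joints. Osteoblast and osteocyte markers summed to 112 to 165 CPM in 6F2 joints, to 99.5, 333, 215 and 283 CPM in control-antibody mice 1 to 4 and to 72.2 to 122 CPM in naive joints. Like Pdpn, this sum was highest in control-antibody mice 2, 3 and 4. Its largest part was Ibsp, with 4701 counts over the 6F2 libraries, 8309 over the control-antibody arthritis libraries and 3104 over the naive libraries. Of the 8 genes of this list, 3 were above 0 and 5 below 0 in control-antibody arthritis against naive. Their median log2 fold change was -0.19, and 1 was called higher and 0 lower. The part of lymphatic, epidermal and bone cells in Pdpn was not tested.

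**Figure D2:**
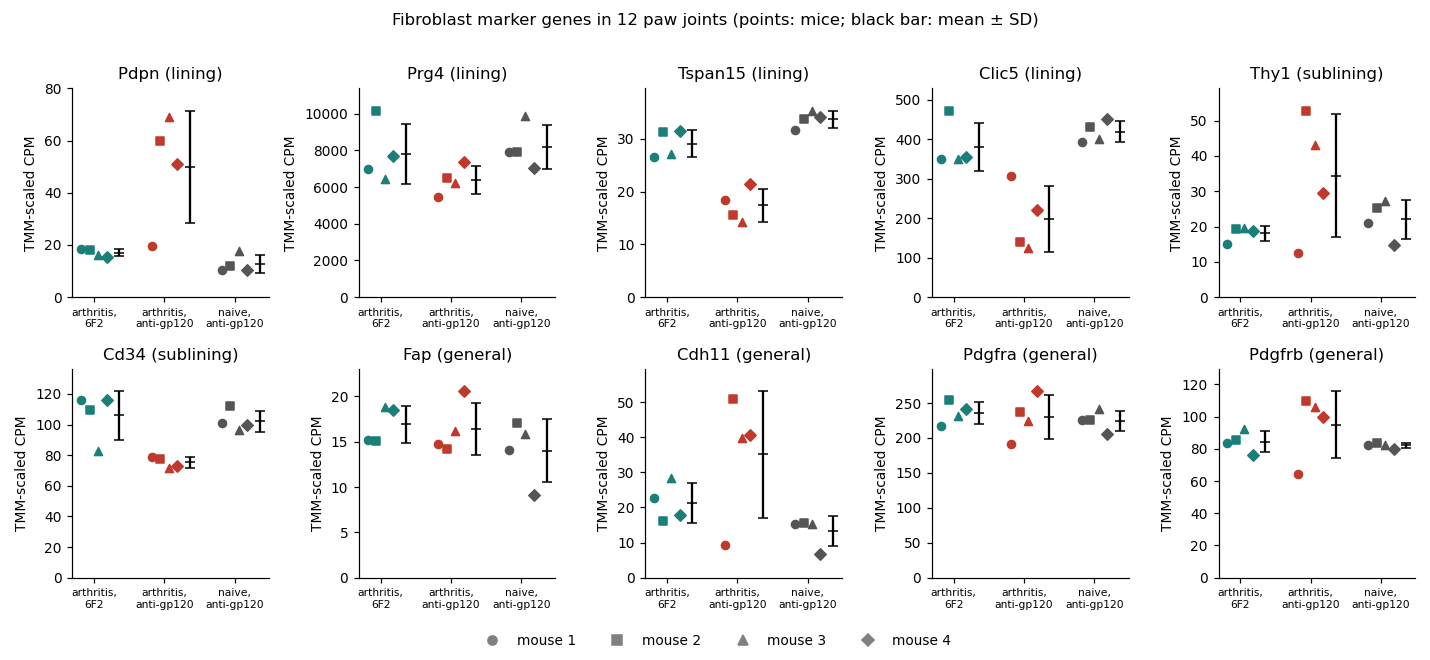
TMM-scaled CPM (y axes, from 0) of each marker in each mouse, by group, with the mean and SD beside the points. Control-antibody mouse 1 (circle) has 19.4 CPM of Pdpn and 9.26 CPM of Cdh11, below the other 3 mice of its group, while Cd34 is between 71.7 and 78.6 CPM in all 4.

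Tspan15 encodes a tetraspanin that binds the protease ADAM10, and it marks lining fibroblasts in mouse joints. It was at 26.5, 31.2, 27.1 and 31.4 CPM in 6F2 mice 1 to 4. Levels were 18.4, 15.5, 14.3 and 21.4 CPM in control-antibody arthritis, and in naive joints 31.6, 33.6, 35.3 and 34.0 CPM. The 3 groups did not overlap, with 6F2 between the others, and control-antibody mouse 1 was as low as the rest of its group. Tspan15 changed by -0.95 ± 0.13 in control-antibody arthritis against naive (edgeR adjusted p = 0.00503). It rose by 0.74 ± 0.13 under 6F2 (edgeR adjusted p = 0.0237). The fall in arthritis stayed called whichever single mouse was left out, with edgeR adjusted p values up to 0.0192. The rise under 6F2 was lost without control-antibody mouse 2, 3 or 4 (edgeR adjusted p = 0.0629, 0.0668 and 0.0507) or 6F2 mouse 1 or 2 (edgeR adjusted p = 0.0707 and 0.0922).

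Clic5 encodes a chloride intracellular channel protein tied to the actin cortex, a marker of the lining that other tissues, among them muscle, also express. It was at 350, 473, 349 and 356 CPM in 6F2 mice 1 to 4. In control-antibody arthritis it was at 308, 141, 124 and 220 CPM, and in naive joints at 393, 432, 402 and 452 CPM. Every control-antibody mouse was below every mouse of the other groups, with mouse 1 the nearest to them. Clic5 changed by -1.08 ± 0.24 in control-antibody arthritis against naive (edgeR adjusted p = 0.0177). It rose by 0.94 ± 0.24 under 6F2 (edgeR adjusted p = 0.0480), close to the threshold. The fall in arthritis was lost without naive mouse 4 or control-antibody mouse 2 or 3 (edgeR adjusted p = 0.0510, 0.0514 and 0.0555). Among the 12 fits without 1 mouse, the rise under 6F2 was called only without control-antibody mouse 1 (edgeR adjusted p = 0.000427). It was lost in the other 11, with edgeR adjusted p values up to 0.140 without 6F2 mouse 2.

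Markers of muscle were measured beside Clic5. The summed level of 14 skeletal muscle genes was 235612, 239629, 210670 and 123157 CPM in 6F2 mice 1 to 4. It was 233492, 118295, 134768 and 179027 CPM in control-antibody arthritis and 182711 to 317393 CPM in naive joints. In control-antibody arthritis mouse 1 was highest and mouse 4 next in both this sum and Clic5. 6F2 mouse 4 had a muscle sum within the control-antibody range and a Clic5 level of 356 CPM, above all control-antibody mice. In control-antibody arthritis against naive 3 of the 14 muscle genes were called lower and 0 higher, and all 14 were below 0, with a median log2 fold change of -0.66. Under 6F2 against the control antibody 0 were called, and all 14 were above 0, with a median of 0.52. The part of muscle RNA in the Clic5 result was not tested.

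Prg4 encodes lubricin, the glycoprotein that coats cartilage, which lining cells and surface chondrocytes secrete. It was at 6965, 10158, 6436 and 7705 CPM in 6F2 mice. In control-antibody arthritis it was at 5475, 6483, 6227 and 7357 CPM, and in naive joints at 7886, 7915, 9862 and 7038 CPM. The groups overlapped, and Prg4 was not called in either comparison. Its log2 fold change was -0.36 ± 0.20 in control-antibody arthritis against naive, with a 95% interval from -0.80 to 0.08 (edgeR adjusted p = 0.269). Under 6F2 against the control antibody it was 0.29 ± 0.20, with an interval from -0.15 to 0.73 (edgeR adjusted p = 0.399). Prg4 had at least 49360 counts in each library. Markers of cartilage summed to 564 to 652 CPM in 6F2 joints, 513 to 958 CPM in control-antibody arthritis and 454 to 643 CPM in naive joints. Comp was the largest part of this sum, with 31022, 26800 and 26340 counts over the libraries of these groups. Of the 6 cartilage genes tested, 1 was called higher and 1 lower in control-antibody arthritis against naive.

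Thy1, a GPI-anchored surface glycoprotein, marks sublining fibroblasts near vessels and is also carried by T cells and nerve. It was at 15.0, 19.2, 19.6 and 18.7 CPM in 6F2 mice 1 to 4. Its level was 12.4, 52.8, 43.1 and 29.5 CPM in control-antibody arthritis, and in naive joints 20.9, 25.4, 27.3 and 14.8 CPM. Mice 2, 3 and 4 of the control-antibody group were above every other mouse, and mouse 1 was the lowest of all 12. Thy1 was not called in arthritis, at 0.64 ± 0.35 (edgeR adjusted p = 0.253), nor under 6F2, at -0.92 ± 0.35 (edgeR adjusted p = 0.137). Without control-antibody mouse 1 both differences passed, at 0.90 (edgeR adjusted p = 0.00699) and -1.19 (edgeR adjusted p = 0.00176). With other mice left out, edgeR adjusted p values ran up to 0.574 and 0.339. Of 9 T and NK cell markers 2 passed the filter, and all 9 summed to 4.12 to 6.21 CPM in 6F2 joints, 1.49 to 6.83 CPM in control-antibody arthritis and 2.32 to 3.29 CPM in naive joints. The CD3 chains, which define T cells, were near 0 and did not share an order of the groups. Summed over the 4 libraries of a group, Cd3e had 32 counts under 6F2, 5 in control-antibody arthritis and 12 in naive joints. Cd3g had 14, 25 and 16 counts and Cd3d 7, 9 and 4 in the same groups. Schwann cell and nerve markers summed to 520 to 715 CPM in 6F2 joints, 401 to 643 CPM in control-antibody arthritis and 501 to 702 CPM in naive joints. The part of these cells in Thy1 was not tested.

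Cd34, a sialomucin of sublining fibroblasts that endothelium and blood progenitors share, was at 116, 109, 82.7 and 116 CPM in 6F2 mice. In control-antibody arthritis it was at 78.6, 77.8, 71.7 and 73.1 CPM, and in naive joints at 101, 112, 96.3 and 99.6 CPM. All 4 control-antibody mice, mouse 1 included, were below every other mouse. Cd34 changed by -0.44 ± 0.12 in control-antibody arthritis against naive (edgeR adjusted p = 0.0321). It rose by 0.49 ± 0.12 under 6F2 (edgeR adjusted p = 0.0403). The fall in arthritis was lost when any 1 naive mouse was left out (edgeR adjusted p = 0.0655, 0.0813, 0.0522 and 0.0671 without mice 1 to 4), and without control-antibody mouse 2, 3 or 4 (edgeR adjusted p = 0.0625, 0.0922 and 0.0791). The rise under 6F2 was lost without naive mouse 1, 2 or 3 (edgeR adjusted p = 0.0601, 0.0524 and 0.0574), control-antibody mouse 2, 3 or 4 (edgeR adjusted p = 0.0863, 0.121 and 0.0943) or 6F2 mouse 1, 2 or 4 (edgeR adjusted p = 0.119, 0.117 and 0.0567). Its size stayed between -0.48 and -0.42 in arthritis and between 0.45 and 0.60 under 6F2.

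Vessel markers were measured beside Cd34. Of 9 endothelial genes, 2 were called lower and 0 higher in control-antibody arthritis, and the same 2 were called higher under 6F2. They were the angiopoietin receptor Tek, at -0.46 ± 0.11 and 0.47 ± 0.11, and the tight junction gene Cldn5, at -0.92 ± 0.16 and 0.86 ± 0.16. The median over the 9 was 0.18 and -0.27 in the 2 comparisons. By sign, 5 of the 9 were above 0 and 4 below in arthritis, and 3 above and 6 below under 6F2. Their summed level was 181 to 254 CPM in 6F2 joints, 148 to 313 CPM in control-antibody arthritis and 201 to 252 CPM in naive joints. The call of Cldn5 in arthritis held in all 12 fits without 1 mouse, and the other 3 calls were each lost in some, with edgeR adjusted p values up to 0.121. Markers of blood progenitors summed to 49.9 to 67.6 CPM in 6F2 joints, 35.7 to 55.2 CPM in control-antibody arthritis and 35.1 to 48.2 CPM in naive joints. The part of vessels and progenitors in the Cd34 result was not tested.

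Cdh11 encodes cadherin 11, the adhesion molecule by which lining fibroblasts bind each other, and it was at 22.7, 16.0, 28.4 and 17.8 CPM in 6F2 mice 1 to 4. In control-antibody arthritis it was at 9.26, 51.0, 39.7 and 40.5 CPM, and in naive joints at 15.4, 15.7, 15.4 and 6.74 CPM. Mice 2, 3 and 4 of the control-antibody group were highest of all 12, and mouse 1 was below every 6F2 mouse and 3 of the naive mice. The log2 fold change was 1.39 ± 0.45 in control-antibody arthritis against naive (edgeR adjusted p = 0.0700) and -0.72 ± 0.44 under 6F2 (edgeR adjusted p = 0.335), and neither was called. Without control-antibody mouse 1 both passed, at 1.70 (edgeR adjusted p = 0.000863) and -1.03 (edgeR adjusted p = 0.0180). With other mice left out, edgeR adjusted p values ran up to 0.181 and 0.622. DESeq2 called the difference in arthritis with all 12 libraries, at 1.37 (DESeq2 adjusted p = 0.00742). Osteoblast genes, whose cells also carry cadherin 11, summed to 112 to 165 CPM in 6F2 joints, 99.5 to 333 CPM in control-antibody arthritis and 72.2 to 122 CPM in naive joints. Ibsp was the largest part of this sum. Of the 8 genes, 3 were above 0 and 5 below 0 in control-antibody arthritis against naive, with a median of -0.19. The part of bone cells in Cdh11 was not tested.

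Fap encodes fibroblast activation protein, a serine protease of the cell surface. It was at 15.2, 15.1, 18.8 and 18.5 CPM in 6F2 mice, at 14.8, 14.2, 16.2 and 20.6 CPM in control-antibody arthritis and at 14.1, 17.1, 15.8 and 9.12 CPM in naive joints. The 3 groups overlapped. Its log2 fold change was 0.23 in control-antibody arthritis against naive (95% interval -0.18 to 0.64; edgeR adjusted p = 0.461) and 0.04 under 6F2 (-0.37 to 0.45; edgeR adjusted p = 0.924).

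Pdgfra and Pdgfrb encode the 2 receptor tyrosine kinases for platelet-derived growth factors, the first on fibroblasts and the second also on mural cells of vessels. Pdgfra was at 217, 255, 232 and 241 CPM in 6F2 mice, at 191, 237, 224 and 267 CPM in control-antibody arthritis and at 225, 225, 242 and 206 CPM in naive joints. Its log2 fold change was 0.03 in control-antibody arthritis against naive (95% interval -0.23 to 0.29; edgeR adjusted p = 0.885) and 0.04 under 6F2 (-0.22 to 0.30; edgeR adjusted p = 0.877). All 3 groups overlapped, and these are the narrowest intervals around 0 among the uncalled markers. Pdgfrb (ENSMUSG00000024620, chromosome 18 from 61045150 to 61085061) was at 83.7, 85.6, 92.3 and 76.0 CPM in 6F2 mice, at 64.6, 110, 106 and 99.4 CPM in control-antibody arthritis and at 82.1, 83.9, 82.3 and 80.2 CPM in naive joints. As with Thy1, control-antibody mouse 1 was the lowest of all 12 and the other 3 mice the highest. The log2 fold change of Pdgfrb was 0.21 ± 0.14 in arthritis (edgeR adjusted p = 0.358) and -0.17 ± 0.14 under 6F2 (edgeR adjusted p = 0.494). Without control-antibody mouse 1 it was 0.35 (edgeR adjusted p = 0.0149) and -0.31 (edgeR adjusted p = 0.0316). With other mice left out, edgeR adjusted p values ran up to 0.639 and 0.787. Of 9 mural cell genes, 1 was called higher and 2 lower in control-antibody arthritis, while 3 were above 0 and 6 below. The pericyte genes Rgs5 and Kcnj8 fell by 0.764 and 0.997 on the log2 scale and rose by 0.89 and 1.03 under 6F2, and the adhesion molecule Mcam rose by 0.74 in arthritis (edgeR adjusted p from 0.0200 to 0.0454). Each of these mural calls was lost in at least 3 of the 12 fits without 1 mouse, with edgeR adjusted p values up to 0.147. The mural sum was 1132 to 1584 CPM in 6F2 joints, 893 to 1181 CPM in control-antibody arthritis and 1124 to 1239 CPM in naive joints, and its part in Pdgfrb was not tested.

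Pdgfra gives a scale within each library that does not depend on library size or the CPM scaling. Pdpn had 0.0858, 0.0710, 0.0704 and 0.0640 reads per Pdgfra read in 6F2 mice 1 to 4. It had 0.102, 0.252, 0.309 and 0.191 in control-antibody arthritis, and 0.0470, 0.0530, 0.0733 and 0.0514 in naive joints. On this scale too each control-antibody mouse was above every mouse of the other groups. Tspan15 had 0.117 to 0.131 reads per Pdgfra read in 6F2 joints, 0.0637 to 0.0965 in control-antibody arthritis and 0.140 to 0.165 in naive joints, and the groups did not overlap. Clic5 had 1.48 to 1.86 in 6F2 joints, 0.555 to 1.61 in control-antibody arthritis and 1.66 to 2.196 in naive joints. On this scale control-antibody mouse 1 lay within the 6F2 range of Clic5 and just below the naive one. Cd34 had 0.357 to 0.535 in 6F2 joints, 0.274 to 0.411 in control-antibody arthritis and 0.398 to 0.497 in naive joints, and control-antibody mouse 1 overlapped both other groups, unlike in CPM. Prg4 had 27.8 to 39.9 in 6F2 joints, 27.4 to 28.6 in control-antibody arthritis and 34.2 to 40.8 in naive joints, so that the control-antibody and naive groups were apart on this scale though not in CPM. Reads of Pdpn per read of Tspan15, both lining markers, were 0.490 to 0.701 in 6F2 joints, 1.05 to 4.85 in control-antibody arthritis and 0.311 to 0.502 in naive joints. These ratios are descriptions without a test.

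**Figure D3:**
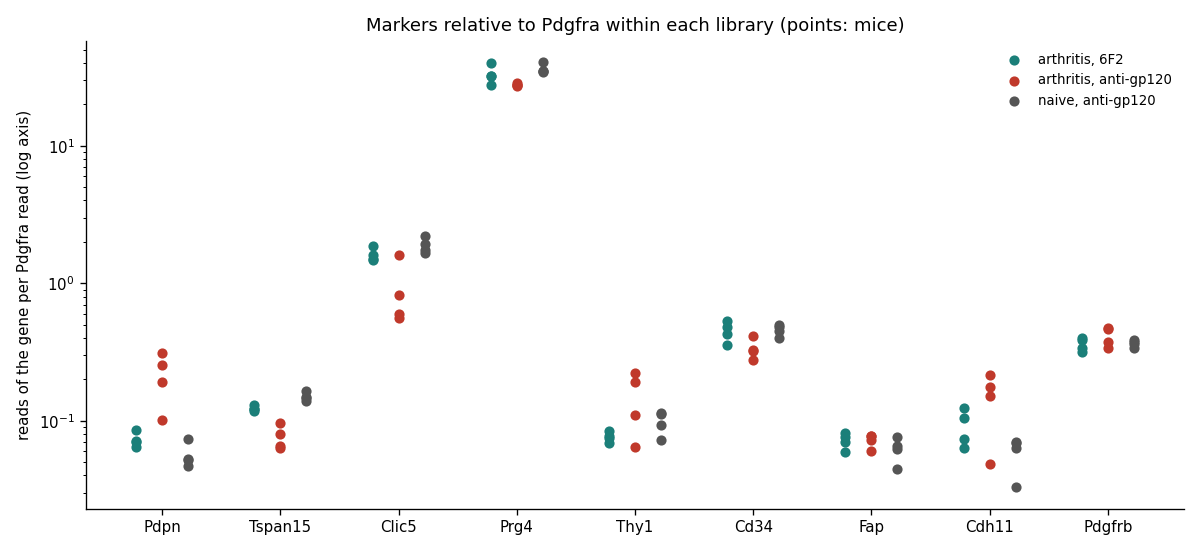
Reads of each marker per Pdgfra read (y axis, log scale) in each mouse, by group. Pdpn is between 0.102 and 0.309 in control-antibody arthritis and at most 0.0858 in the other mice, while Tspan15 is below the other groups there, at 0.0637 to 0.0965.

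Joints under 6F2 were also compared with naive joints. Of the 10 markers 0 were called, and 0 had an unadjusted p below 0.05. edgeR called 0 of all 16674 genes (0%), with 675 (4.05%) at an unadjusted p below 0.05, and DESeq2 called 20 genes, none of them a marker. The groups did not overlap for Cdh11, higher under 6F2, and Tspan15, lower under 6F2, or 2 of the 10 markers, where 4.89% of all genes were apart, 3.04% higher and 1.85% lower. Pdpn stood at 17.1 ± 1.49 CPM under 6F2 and 12.7 ± 3.40 CPM in naive joints (SD, n = 4), a log2 fold change of 0.43 with a 95% interval from -0.24 to 1.10. Cdh11 stood at 21.3 ± 5.56 CPM under 6F2 and 13.3 ± 4.37 CPM in naive joints, with an interval from -0.30 to 1.65. For Tspan15 the interval was -0.49 to 0.07, for Clic5 -0.64 to 0.37 and for Cd34 -0.20 to 0.30. These intervals do not show that the markers were at naive levels.

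Other markers of the same compartments, taken from lists with the 10 left out, were measured as well. Of 6 further lining genes, 2 were called higher and 1 lower in control-antibody arthritis, and the median was -0.06. The adhesion molecule Vcam1 rose by 1.99 ± 0.49 and the hyaluronan synthase Has1 by 1.61 ± 0.39, while Cd55, which protects cells from complement, changed by -1.14 ± 0.25. Under 6F2, 1 was called higher and 1 lower: Cd55 at 1.17 ± 0.25 and Has1 at -1.62 ± 0.39. Of 8 further sublining genes, 2 were called higher and 1 lower in control-antibody arthritis, with a median of 0.10. The Wnt antagonist Sfrp1 rose by 2.61 ± 0.59 and the collagen Col14a1 by 1.03 ± 0.30, and Clec3b, which encodes tetranectin, changed by -1.002 ± 0.17. Under 6F2 Clec3b rose by 1.11 ± 0.17 and Sfrp1 changed by -2.59 ± 0.59. Genes of both compartments thus stood on both sides of 0. No gene here is independent support for the 10 markers.

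Of 12 further general fibroblast genes, 10 were above 0 and 2 below in control-antibody arthritis, with a median of 0.84. Among them 5 were called higher and 0 lower. The 5 called were the collagens Col1a1 (2.09 ± 0.45), Col1a2 (1.70 ± 0.40) and Col3a1 (2.03 ± 0.42), the proteoglycan Lum (1.28 ± 0.29) and Pcolce, which promotes collagen processing (1.08 ± 0.30). Under 6F2 only Col3a1 was called, at -2.18 ± 0.42, and the median was -0.80. Of 20 tested genes for partners of the markers, 2 were called higher and 1 lower in control-antibody arthritis, and 1 was called lower under 6F2. These included Dpp9, a relative of Fap (0.41 ± 0.12, and -0.48 ± 0.12 under 6F2), and the tetraspanin Cd9 (-0.74 ± 0.21). Of the 4 PDGF ligands none was called, and Pdgfc, a ligand of Pdgfra, was nearest at 0.60 ± 0.18 in arthritis (edgeR adjusted p = 0.0511). Of the 20 genes other than the markers that were called in arthritis in the 3 fibroblast lists and the partner, mural, endothelial and lymphatic lists, 3 kept their call whichever mouse was left out: Clec3b, Cldn5 and Lyve1. Of the 11 called under 6F2, 0 did, with edgeR adjusted p values up to 0.146.

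Genes whose levels followed a marker most closely over the 12 libraries were found by the Pearson correlation of log2 CPM, as a description. The 12 libraries span the 3 groups, so group differences enter these values. Pdpn was closest to Nfkb2, an NF-kB subunit, and Timp1, an inhibitor of metalloproteinases, at 0.98 each. Tspan15 was closest to Scara3 and Tnxb, at 0.96 each, and Cd34 to Insig1 and Tppp3, at 0.95 each. Clic5 was closest to Cd24a and Klhl23, at 0.99 each. Thy1 was closest to Col15a1 (0.97), Cdh11 to Slfn8 and Irf7 (0.96 each) and Pdgfrb to Nlgn2 (0.97). Prg4 was closest to Ccn2 (0.91) and Pdgfra to the matrix gene Dpt (0.87), itself in the sublining list.

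The plot of adjusted p values with each mouse left out shows that in arthritis against naive Pdpn and Tspan15 stayed below 0.05 throughout. Under 6F2 no marker did. Leaving out control-antibody mouse 1 raised the number of called markers to 7 in each comparison, 4 higher and 3 lower in arthritis, and 3 higher and 4 lower under 6F2. The calls over all genes rose as well, from 1721 to 4694 in arthritis and from 548 to 3976 under 6F2. Leaving out control-antibody mice 2 and 4 together lowered the number of called markers to 0 in each, with Pdpn at 1.78 in arthritis (edgeR adjusted p = 0.104) and -1.34 under 6F2 (edgeR adjusted p = 0.240). In that fit 1 of all genes was called in arthritis and 0 under 6F2.

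**Figure D4:**
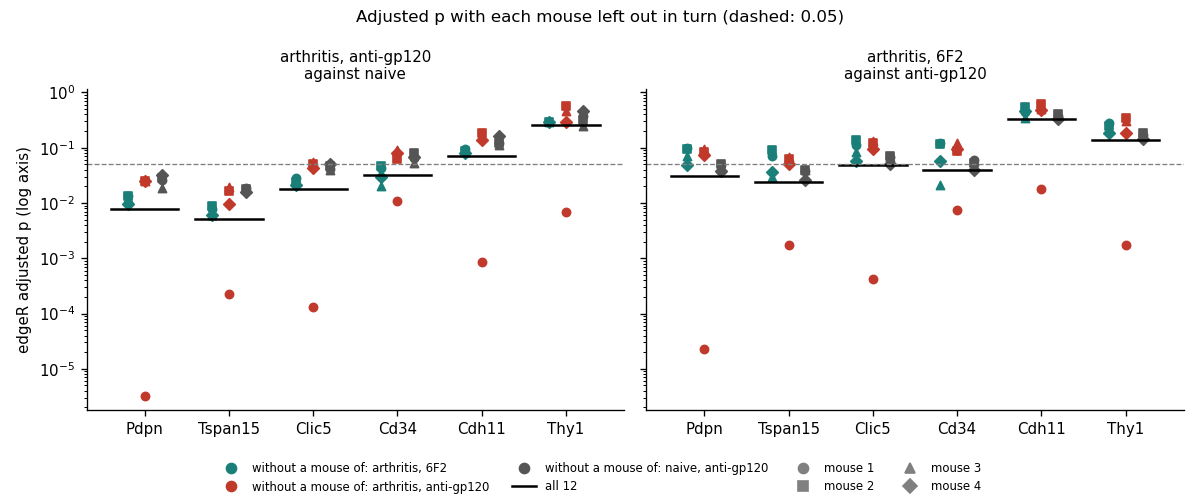
edgeR adjusted p (y axis, log scale) of 6 markers when each of the 12 mice is left out in turn; colour gives the group of the mouse left out, shape its number, and the black line the value with all 12. Without control-antibody mouse 1 (red circle) all 6 are below 0.05 in both comparisons, with Pdpn at 3.29e-06 and 2.32e-05.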

How the data were processed

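For each of the 12 mouse joint libraries the authors deposited raw counts per gene, in whole numbers and not normalized. Per the labels' protocols, total RNA was extracted with a Qiagen RNeasy kit and libraries came from a stranded Illumina TruSeq total RNA kit. Build GRCm38 is named in the submitters' processing notes, while aligner, counting program, strand setting and annotation are not given in the labels. Values in the 12 sample files and the series table were equal. Symbols, coordinates and exon lengths came from GENCODE M21 on GRCm38, where 52489 of 52636 identifiers matched, and promoter sequences from RefSeq on GRCm38.p6.

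The test was that of edgeR 4.0.16 (R 4.3.3). After filterByExpr by group, 16674 genes remained. With TMM scaling, a robust quasi-likelihood model with 1 coefficient per group was fitted to all 12 libraries. F-test p-values were adjusted by Benjamini-Hochberg over all tested genes at a threshold of 0.05. Log2 CPM used a prior count of 2. Intervals are 95% t intervals of the fit. Each marker had at least 88 counts per library. For Pdgfrb and Tspan15 in naive joints and Cd34 in control-antibody arthritis, the spread between mice was small enough for counting error to make up much of it. Without molecular identifiers counting error covers counting alone. No 2 libraries of a group agreed within sampling noise (lowest chi-square per gene 8.26). Each library is 1 mouse per the labels.

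The members and lists were chosen with earlier results of these data known. The text names the 10 markers, up to 3 called genes per list with the smallest p, and up to 3 genes per marker with the highest correlation among genes with a mean log2 CPM of 1 or more and a proper symbol. Col1a2, Pcolce, Pdgfc, Cd3e, Cd3g, Cd3d, Gm26917 and Ccl21a fall outside this rule and were named after their values were seen. Ibsp and Comp were named as the largest parts of the bone and cartilage sums. Alternatives were DESeq2 1.42.0, limma-voom (limma 3.58.1), other scaling and filters, a fit of 2 groups, a replicate block and fits without 1 or 2 libraries. Replicate numbers 1 to 4 in the labels only name mice. 1 called gene of the partner list is not reported here.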

Additional observations from a re-analysis of the deposited data

Results flagged for a closer look

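Of 30 sets of 4 mice, 1 for each marker and group, 2 held a mouse far from the other 3 by Dixon's test at its 95% critical value; chance flags about 1 in 20 such sets. Clic5 was at 473 CPM in 6F2 mouse 2, against 349 to 356 CPM in the other 6F2 mice. Cdh11 was at 6.74 CPM in naive mouse 4, against 15.4 to 15.7 CPM in the other naive mice. These are the mice with the lowest summed epidermal markers of the 12, at 6.25 and 6.82 CPM, and the part of skin RNA in either value was not tested.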

How the results depend on the processing

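Of 660 refits of a marker's fold change, 22 alternatives for each of 30 values, 567 kept direction and side of the threshold, 72 lost the call, 7 gained one and 14 changed sign. The number of markers called in control-antibody arthritis against naive was 4. Fitting those 2 groups alone gave 2, and it was 0 without control-antibody mice 2 and 4, 2 without naive mouse 4 and 6F2 mouse 2, and 2 to 7 with 1 mouse left out. Under 6F2 against the control antibody it was 4, and 2 without a filter, 1 with limma-voom, 0 with only the 2 groups, 0 without control-antibody mice 2 and 4, 0 without naive mouse 4 and 6F2 mouse 2, and 0 to 7 with 1 mouse left out. With the replicate number as a block it was 3 in arthritis and 0 under 6F2. The numbers are no known pairing, and deviations of the 12 same-numbered pairs correlated from -0.80 to 0.21. 6F2 against naive stayed at 0 throughout. The cause of these shifts was not tested.

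The sign changes were all in values near 0. Pdgfra in arthritis was -0.0266 without a filter, -0.13 without control-antibody mice 2 and 4, -0.018 without naive mouse 4 and 6F2 mouse 2, and -0.050 to 0.10 with 1 mouse left out. Under 6F2 against the control antibody, Pdgfrb was 0.016 without control-antibody mice 2 and 4; with 1 mouse left out, Pdgfra was -0.031 to 0.12 and Fap -0.023 to 0.17. Under 6F2 against naive, with 1 mouse left out, Prg4 was -0.22 to 0.038 and Pdgfrb -0.0051 to 0.091.

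Over all genes, the 1721 calls in arthritis became 2905 with DESeq2, 435 with only the 2 groups, 735 with the block, 1 without control-antibody mice 2 and 4, 166 without naive mouse 4 and 6F2 mouse 2, and 412 to 4694 with 1 mouse left out. The 548 calls under 6F2 became 1892, 0, 78, 0, 0 and 0 to 3976 in the same order, and 345 with limma-voom. Against naive, 0 calls became 4 without a filter and 20 with DESeq2. With limma-voom the split in arthritis was 486 higher and 677 lower, against 979 and 742, and under 6F2 it was 221 higher and 124 lower, against 265 and 283.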
